A study of Bruguiera gymnorhiza with 19 samples.

Results

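In leaves of Burma mangrove (Bruguiera gymnorhiza), 32 of 11997 mangrove probes on an oligonucleotide array read higher after both 6 h and 24 h in NaCl than before treatment, without a matching rise in sorbitol. They were chosen by a rule on the measured levels, so the shape just described is what selected them and is no finding. Levels are log2 of the spot intensity plus 50, made equal in distribution across 18 arrays, and the rule used the means of the 6 groups. A probe was kept if its highest group mean was at least 9.5 and if NaCl 6 h and NaCl 24 h lay at least 0.7 above NaCl 0 h and at least 0.3 above sorbitol 0 h. Its sorbitol 6 h and 24 h means also had to lie less than 0.4 above sorbitol 0 h. A difference of 1 on this scale is a doubling of intensity plus 50, which understates the change of dim probes. Of the 32 probes, 27 come from single cDNA clones (names beginning Bg) and 5 from assembled contigs (names beginning CL).

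Leaves came from plants aged 3 years and 7 months, raised in vermiculite from wild seeds. Culture water was replaced by 500 mM NaCl in one series and by 1 M sorbitol in the other, and leaves were taken just before (0 h), 6 h and 24 h after the change. Each of the 6 groups held 3 samples, A, B and C, called biological replicates in the labels. The letters follow the sample titles; other label fields disagree for NaCl 6 h C in its number and for NaCl 24 h C in its letter. The labels do not say whether the samples came from separate plants, so spreads and p-values cover the differences between these samples. Neither 0 h group had been treated, and untreated leaves from 6 h and 24 h were not analysed here, so time since the start and treatment cannot be told apart within a series. Sample C of NaCl 0 h was also hybridised to a repeat array, which the rule did not use.

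NaCl in the water around the roots acts on a plant in a pair of ways: it lowers the water potential, as any solute does, and it brings sodium and chloride ions that harm enzymes when they build up in the cytosol. Sorbitol, an uncharged sugar alcohol, imposes the water deficit without the ions, and a comparison of the series therefore asks which transcripts respond to salt and not to osmotic stress. Bruguiera is a mangrove without salt glands, which keeps much of the salt out at its roots and stores the remainder in vacuoles. Probes are identified in the files by clone or contig and by sequence, without gene names, so no member is given a function here and the leaf label was not checked against marker genes.

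The sequences shown first are those of the 6 members with the highest value of the smaller of their NaCl rises, written 5′ to 3′ as the files give them. In the name of a probe the last pair of numbers is its first and last base in the clone or contig. Capitals mark a stretch that another mangrove probe on the array also holds.
Bg05-24_F22_153_187: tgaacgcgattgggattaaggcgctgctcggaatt
Bg03-01_B09_459_498: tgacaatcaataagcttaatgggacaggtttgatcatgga
Bg05-20_J21_103_137: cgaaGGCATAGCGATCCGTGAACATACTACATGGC
Bg05-21_L03_81_115: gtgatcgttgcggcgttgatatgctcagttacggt
Bg02-09_E24_264_298: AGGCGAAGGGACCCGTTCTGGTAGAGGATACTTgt
Bg05-24_K03_254_293: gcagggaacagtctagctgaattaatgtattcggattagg

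The 4 brightest members follow. None of them shares 20 or more consecutive bases with another mangrove probe.
Bg05-07_C11_336_371: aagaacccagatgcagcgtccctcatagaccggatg
CL269Contig1_685_719: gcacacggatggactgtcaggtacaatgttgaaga
CL462Contig1_906_940: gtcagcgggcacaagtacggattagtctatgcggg
CL914Contig1_321_355: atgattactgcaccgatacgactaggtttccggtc

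A further set is shown because members share bases with other probes, which gives a second reading of nearly the same sequence. Bg05-20_J21 and Bg03-09_O16, both members, have 31 consecutive bases in common. Bg02-02_K12 shares 33 with Bg05-16_D02, Bg02-09_E24 shares 33 with Bg02-06_H06, and Bg01-08_O19 is identical over all 35 bases to Bg03-08_B10 and Bg03-09_B05. None of these 4 partners is a member.
Bg03-09_O16_71_105: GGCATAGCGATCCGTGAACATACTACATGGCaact
Bg02-02_K12_368_403: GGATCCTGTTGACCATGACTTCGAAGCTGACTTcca
Bg05-16_D02_356_391: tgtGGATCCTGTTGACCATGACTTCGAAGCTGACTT
Bg02-06_H06_260_294: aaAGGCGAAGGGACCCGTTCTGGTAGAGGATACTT
Bg01-08_O19_80_114, Bg03-08_B10_52_86 and Bg03-09_B05_64_98: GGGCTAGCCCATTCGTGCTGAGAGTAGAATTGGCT

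Before normalization the arrays differed in brightness. The median probe intensity ran from 52.9 to 1729. Signal was lowest on the C samples of NaCl 6 h and of sorbitol 0 h, 6 h and 24 h. On each of these 4 arrays between 2126 and 3216 mangrove probes read 0, against at most 54 on any of the remaining arrays. Between 6382 and 8236 probes per array exceeded the 95th percentile of the 70 negative control spots, and the 8642 probes that did so on at least 3 of the 18 arrays were tested. All 32 members were among these, and 23 of them exceeded the controls on every array.

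The differences that chose the members, called the NaCl rises here, were modest. From NaCl 0 h to NaCl 6 h the log2 difference ran from 0.73 to 1.43 with a median of 0.96, a median fold of 1.95. To NaCl 24 h it ran from 0.71 to 1.70 with a median of 0.85, a median fold of 1.81. Over all 8642 tested probes the medians of the same differences were 0.01 and 0.03. Of the members, 13 gained at least 1 (a doubling) by 6 h, 5 by 24 h, and 2 at both times, namely Bg05-24_F22 and Bg03-01_B09. Among all tested probes 373 gained at least 0.7 at both times in NaCl and 32 of these met the further limits on level and on the sorbitol groups.

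Against the untreated leaves of the sorbitol series the NaCl levels stood out less. NaCl 6 h lay 0.35 to 1.23 above sorbitol 0 h (median 0.67) and NaCl 24 h lay 0.30 to 1.61 above it (median 0.57). NaCl 0 h was below sorbitol 0 h for 29 of the 32 members, with a median difference of -0.32, whereas the median over all tested probes was -0.01. The 3 exceptions were Bg01-06_F23 (0.26 above), CL914Contig1 (0.17 above) and Bg03-09_O16 (0.12 above). The rule used both untreated groups, so this difference is a description.

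**Figure D1:**
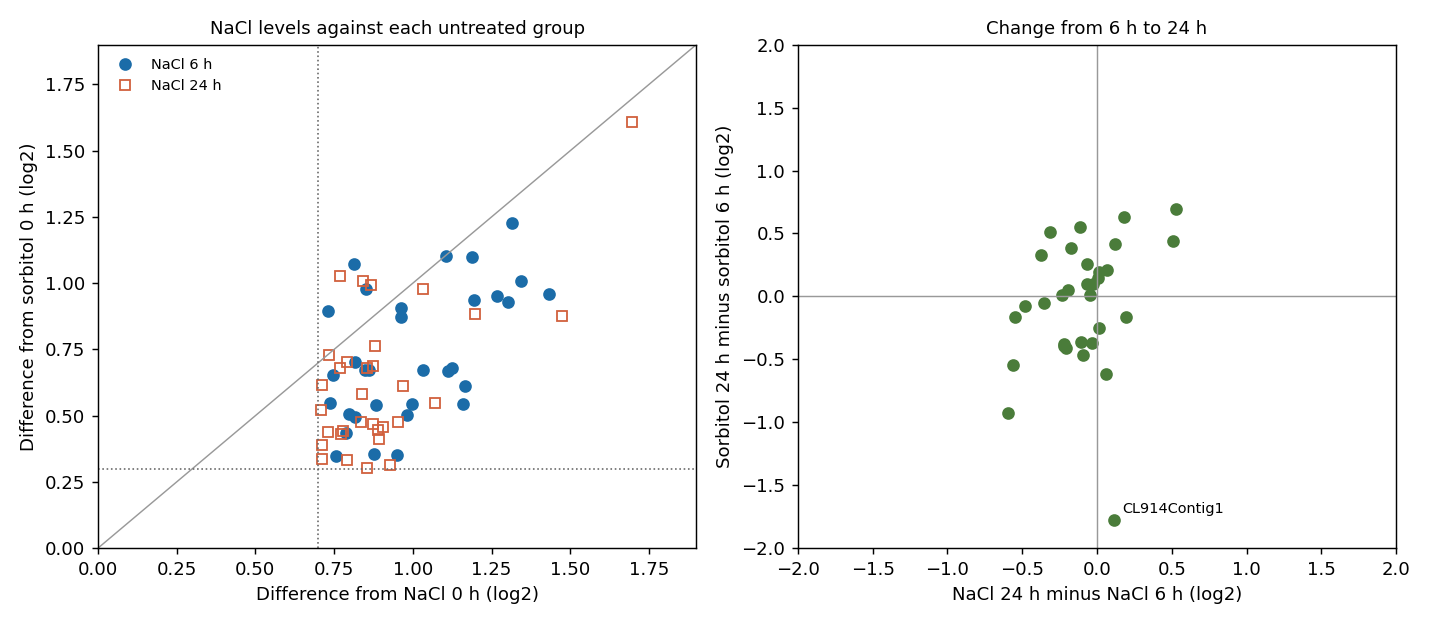
Left, difference of each member's NaCl 6 h (filled) and NaCl 24 h (open) mean from NaCl 0 h (x axis, log2) and from sorbitol 0 h (y axis, log2), with the limits of the rule dotted and equality as a diagonal. Most points lie below the diagonal, since NaCl 0 h was below sorbitol 0 h for 29 of the 32 members. Right, change from 6 h to 24 h in NaCl (x) and in sorbitol (y), where CL914Contig1 lies apart at a sorbitol change of -1.78.

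Sample by sample, the median of the 32 members was 9.89, 9.30 and 9.32 in NaCl 0 h A, B and C. It was 10.51, 10.24 and 10.62 at NaCl 6 h and 10.42, 10.37 and 10.42 at NaCl 24 h. All 6 treated NaCl samples therefore lay above the 3 untreated ones, and NaCl 0 h A was the highest of its group in 20 members. In the sorbitol series the same median was 9.85, 9.76 and 9.85 at 0 h, 9.71, 9.69 and 9.95 at 6 h and 9.71, 9.62 and 10.01 at 24 h. Sample C was highest in both treated sorbitol groups, in 21 members at 6 h and in 25 at 24 h. Those samples are on arrays of lowest signal, and the part of the signal in this was not tested. Over all tested probes the median per sample stayed at 9.41 to 9.42, as the normalization sets it.

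**Figure D2:**
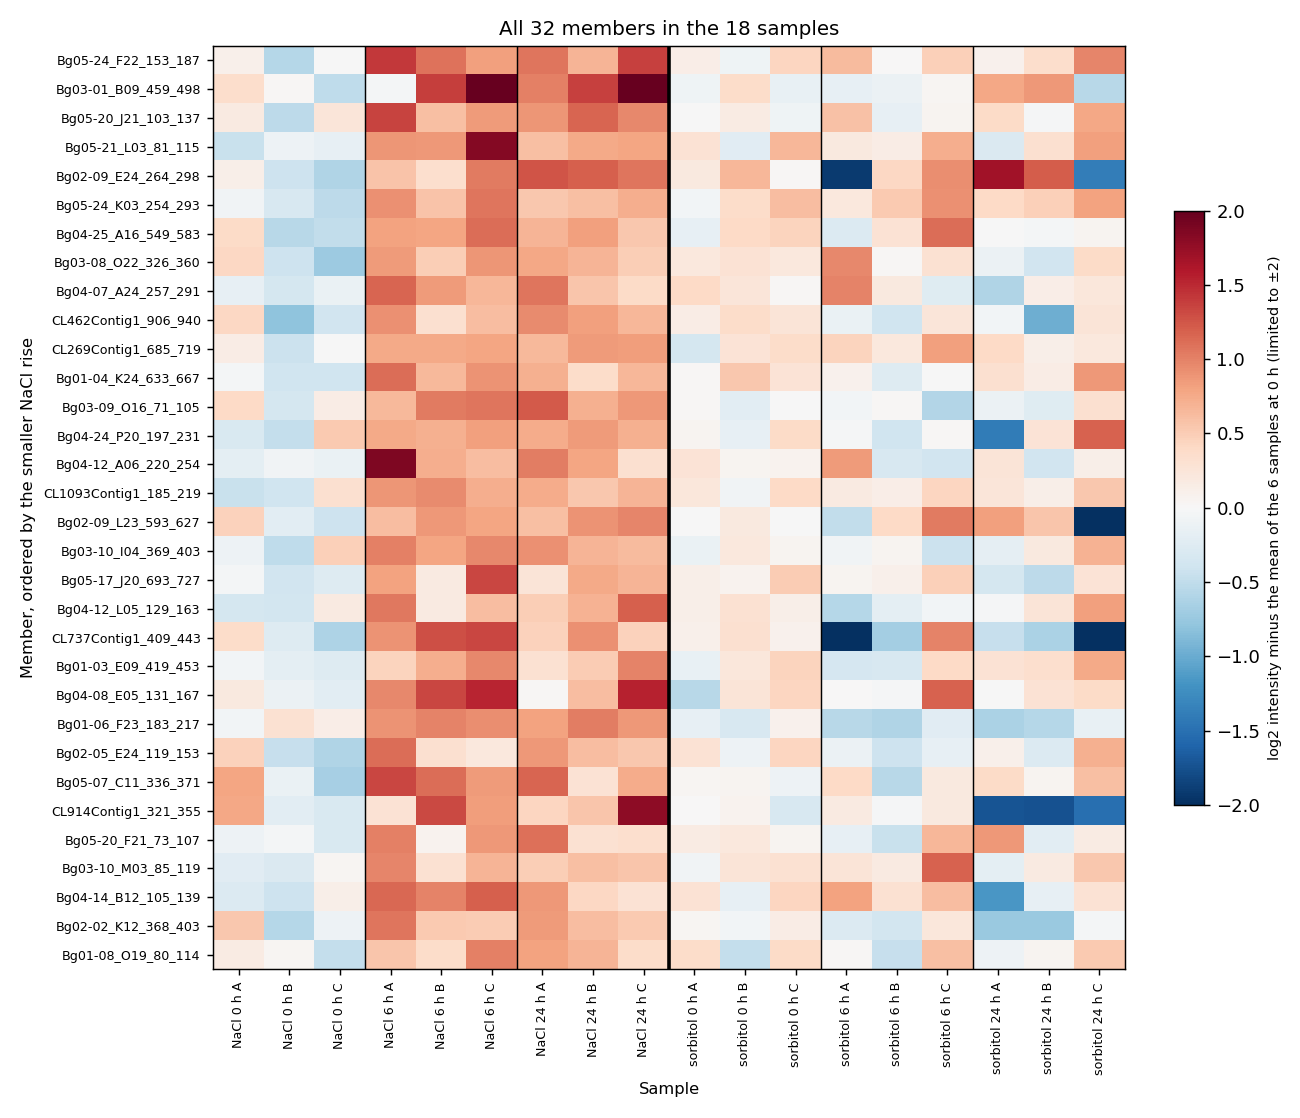
Each row is a member and each column a sample; colour gives the log2 intensity minus the mean of the 6 untreated samples of both series, limited to 2 either way. Rows are ordered by the smaller of the NaCl rises. The 6 treated NaCl columns are mostly red, and the darkest blue cells are in CL737Contig1, CL914Contig1, Bg02-09_E24 and Bg02-09_L23 under sorbitol.

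The spread between samples was set beside the rises. The within-group SD, pooled over the 6 groups, had a median of 0.38 over the members and ran from 0.18 (Bg01-06_F23) to 0.95 (Bg02-09_E24), beside a median of 0.36 over all tested probes. In a linear model of the 6 groups fitted to all tested probes (limma, with Benjamini-Hochberg adjustment over the 8642 and a threshold of 0.05), 20 of the 32 members passed as higher at NaCl 6 h, where 8.1% of all tested probes did. At NaCl 24 h 7 members passed, where 2.09% of all probes did. In 6 members both times passed, in 14 only 6 h, in 1 only 24 h, and in 11 neither did. The rule used these contrasts, so the counts describe how wide the spread is and support nothing. Without the 4 arrays of lowest signal the first count was 12, and without NaCl 0 h B the counts were 4 and 0 (25 and 20 at an unadjusted p under the threshold). Calls over all tested probes, in either direction, also fell without NaCl 0 h B, from 1415 and 397 to 348 and 38. The member count at NaCl 24 h was also 0 without NaCl 24 h A or NaCl 24 h C, and both member counts were 0 under median scaling (28 and 22 unadjusted).

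Counted by overlap, all 3 NaCl 6 h samples lay above all 3 NaCl 0 h samples in 26 members, beside 14.7% of the tested probes, and all 3 NaCl 24 h samples did so in 28, beside 13.4%. NaCl 6 h lay wholly above sorbitol 6 h in 17 members (9.26% of the tested probes) and NaCl 24 h wholly above sorbitol 24 h in 15 (17.2%). The rule used these groups, and nothing is read from the counts. All 6 treated NaCl samples lay above all 12 other samples in 3 members, Bg03-09_O16, CL1093Contig1 and Bg01-06_F23, beside 0.0694% of the tested probes (6 probes). The gap between the lowest treated NaCl sample and the highest other sample was 0.24 for Bg03-09_O16, 0.01 for CL1093Contig1 and 0.49 for Bg01-06_F23.

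Bg01-06_F23 had the least spread of the members. Its levels were 8.72, 9.08 and 8.90 in NaCl 0 h, 9.67, 9.76 and 9.70 in NaCl 6 h and 9.57, 9.80 and 9.64 in NaCl 24 h. In sorbitol it read 8.61, 8.45 and 8.85 at 0 h, 8.22, 8.17 and 8.54 at 6 h and 8.13, 8.19 and 8.62 at 24 h. The highest sample outside treated NaCl was thus untreated, and the sorbitol changes were -0.33 and -0.32. It is a dim member, above the negative controls on 15 of 18 arrays, and its NaCl rises were 0.81 and 0.77.

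The member with the largest rise held at both times was Bg05-24_F22. It read 8.80, 8.13 and 8.68 in NaCl 0 h A, B and C, 10.11, 9.78 and 9.52 at 6 h and 9.76, 9.38 and 10.06 at 24 h, and no treated sample overlapped an untreated one. In sorbitol it read 8.83, 8.6 and 9.13 at 0 h, 9.32, 8.71 and 9.17 at 6 h and 8.78, 9.05 and 9.67 at 24 h. Sorbitol 24 h C exceeded NaCl 6 h C and NaCl 24 h B, so the treatments overlapped. The rises were 1.27 and 1.20 in NaCl, folds of 2.41 and 2.29, and the sorbitol changes were 0.22 and 0.31.

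Bg03-01_B09 had the largest rise of all members at 24 h, 1.70 or 3.24-fold, and the samples disagreed. NaCl 0 h read 8.96, 8.62 and 8.09, NaCl 6 h read 8.55, 9.98 and 10.69 and NaCl 24 h read 9.61, 9.96 and 11.18. NaCl 6 h A was thus inside the untreated range, and sample C was the highest at both treated times. Sorbitol samples ran from 8.05 (24 h C, on an array of lowest signal) to 9.46. The SDs of the treated NaCl groups were 1.09 and 0.83 (n = 3 each). Without the 4 arrays of lowest signal, among them NaCl 6 h C, the smaller of its rises was 0.64 in place of 1.19.

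Bg05-21_L03 had the largest rise of all members at 6 h, 1.43 or 2.70-fold. Untreated NaCl samples read 9.18, 9.53 and 9.47, those at 6 h read 10.52, 10.49 and 11.46 and those at 24 h read 10.22, 10.39 and 10.41. The treated samples were all above the untreated ones, and 6 h C was the highest of its group. In sorbitol the levels were 9.92, 9.39 and 10.29 at 0 h, 9.82, 9.78 and 10.35 at 6 h and 9.34, 9.95 and 10.44 at 24 h. Sample C was the highest sorbitol sample at every time, and at 24 h it exceeded all the NaCl 24 h samples.

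Bg05-24_K03 shows how much the choice of untreated group matters. NaCl 0 h read 8.78, 8.53 and 8.32, and NaCl 6 h and 24 h ran from 9.38 to 9.91, rises of 1.16 and 0.93. Sorbitol 0 h read 8.79, 9.22 and 9.47. NaCl 0 h minus sorbitol 0 h was -0.61, the widest gap of any member in that direction. At 24 h the NaCl mean of 9.47 and the sorbitol mean of 9.41 were 0.06 apart, less than the SD of the sorbitol group.

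**Figure D3:**
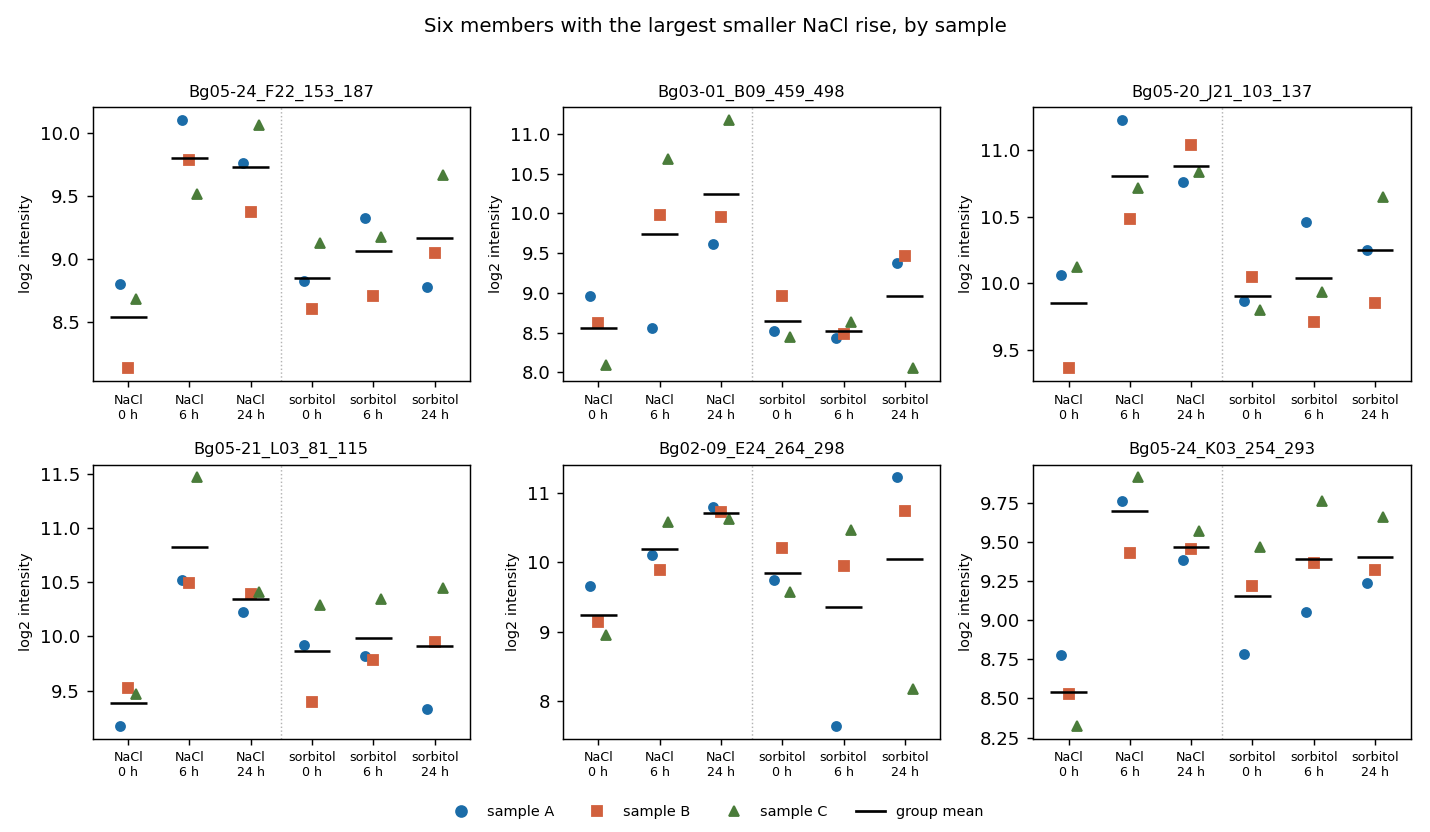
Log2 intensity (y axis, own scale in each panel) of the 6 members with the largest value of the smaller NaCl rise, by group (x axis); symbols are samples A, B and C and bars are group means. Treated NaCl samples stand above the NaCl 0 h samples except NaCl 6 h A of Bg03-01_B09. Some treated NaCl samples lie below sorbitol 0 h samples in Bg02-09_E24, Bg05-21_L03, Bg05-24_K03 and Bg03-01_B09. Bg02-09_E24 has low single samples at sorbitol 6 h and 24 h.

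Bg05-07_C11 was the brightest member. It read 13.54, 12.61 and 12.08 at NaCl 0 h, 14.08, 13.87 and 13.60 at 6 h and 13.90, 13.04 and 13.49 at 24 h. Its untreated samples spread over more than 1, and NaCl 0 h A exceeded NaCl 24 h B and C. In sorbitol it read 12.79, 12.80 and 12.65 at 0 h, 13.14, 12.19 and 12.95 at 6 h and 13.13, 12.80 and 13.34 at 24 h. The NaCl rises were 1.11 and 0.73, and its mean at 24 h was 0.39 above that in sorbitol. Without NaCl 0 h C the smaller rise was 0.40, and without NaCl 0 h A it was 1.14.

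CL269Contig1 was tight under NaCl. Its treated samples read 13.15, 13.15 and 13.19 at 6 h and 13.05, 13.24 and 13.24 at 24 h, against 12.55, 11.97 and 12.40 untreated, rises of 0.86 and 0.87. Sorbitol levels were 12.05, 12.67 and 12.76 at 0 h, 12.84, 12.61 and 13.23 at 6 h and 12.79, 12.52 and 12.60 at 24 h. Sorbitol 6 h C reached the NaCl level. This member is the nearest to a limit of the rule: its sorbitol 6 h change of 0.398 was 0.00155 short of that limit.

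In CL462Contig1 the NaCl mean minus the sorbitol mean was -0.52 at 0 h and 0.71 at 6 h. The rule used these means, so this is a description. Neither NaCl rise, neither sorbitol change and neither difference between them passed the limma test. NaCl samples read 12.19, 10.96 and 11.38 at 0 h, 12.69, 12.09 and 12.38 at 6 h and 12.71, 12.59 and 12.43 at 24 h. Sorbitol samples read 11.92, 12.14 and 12.02 at 0 h, 11.64, 11.36 and 12.02 at 6 h and 11.72, 10.79 and 12.03 at 24 h. Every NaCl 24 h sample was above every sorbitol sample, and the means at 24 h differed by 1.07. NaCl 0 h B was the lowest NaCl sample, and without it the smaller NaCl rise was 0.60 in place of 0.88.

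CL914Contig1 was the only member with a called change between the sorbitol times. It read 11.49, 11.56 and 11.16 in sorbitol at 0 h and 11.66, 11.47 and 11.68 at 6 h, and then 9.76, 9.75 and 9.98 at 24 h. All 3 samples at 24 h were lower than every other sample of the study. The fall from 6 h to 24 h was -1.78 (SE 0.34), and the rule did not limit it downward (limma, adjusted p = 0.001955). It passed in all 30 other fits, with changes of -2.06 to -1.72. In NaCl the same contig read 12.26, 11.27 and 11.19 at 0 h, 11.78, 12.80 and 12.32 at 6 h and 11.93, 12.04 and 13.28 at 24 h. NaCl 0 h A lay within the treated range, and neither NaCl rise passed. The NaCl 24 h mean exceeded the sorbitol 24 h mean by 2.59, the widest gap of any member.

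The levels changed little between 6 h and 24 h of NaCl. The rule sets no limit on this step. The difference ran from -0.59 to 0.53 with a median of -0.08 (all tested probes -0.01), and 26 members stayed within 0.4. The mean was highest at 6 h in 21 members and at 24 h in 11. No member passed the limma test of this step, and the lowest adjusted p was 0.4353 (Bg04-14_B12, -0.59), whereas 2.81% of all tested probes passed. None of the members had an unadjusted p under the threshold, whereas 1111 of the 8642 tested probes did. Both times had to lie high to meet the rule, which keeps them near each other, and a p that misses the threshold does not show that levels were equal.

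Between sorbitol 6 h and 24 h CL914Contig1 alone passed, 3.12% of the members beside 5.5% of all tested probes, and 4 members had an unadjusted p under the threshold. Without sorbitol 24 h C, Bg04-14_B12 also passed with a fall of -1.22 (adjusted p = 0.02609 by limma). On the scale of the rule, the sorbitol 24 h samples left in read 7.61 (A) and 8.61 (B), and the omitted C read 9.06. Sample A had an intensity of 157.4, below the negative control threshold of 268.9 on its array. Without the 4 arrays of lowest signal, Bg02-09_E24 also passed with a rise of 2.06 (adjusted p = 0.01362 by limma). Its sorbitol 6 h samples left in read 7.63 (A) and 9.95 (B), and the omitted C read 10.47. Sample A had an intensity of 64.5, below the threshold of 113.8 on its array, so this rise leans on a spot not above the controls.

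Under sorbitol most members stayed near their untreated level. The median change was -0.03 at 6 h and 0.05 at 24 h (all tested probes -0.003 and 0.02). In 23 members the change was less than 0.4 in either direction at both times. The rule kept both changes under 0.4, so the lack of larger rises is no finding. It had no lower limit here, and 4 members lay more than 0.4 below sorbitol 0 h at 6 h and 6 at 24 h. Those at 6 h were CL737Contig1 (-0.75), Bg02-09_E24 (-0.49), Bg04-12_L05 (-0.45) and Bg02-05_E24 (-0.44). Those at 24 h were CL914Contig1 (-1.58), CL737Contig1 (-1.30), Bg02-02_K12 (-0.55), Bg04-14_B12 (-0.54), CL462Contig1 (-0.52) and Bg05-17_J20 (-0.43). Of these falls CL914Contig1 at 24 h alone passed the limma test, in a direction in which 4.65% of all tested probes passed.

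Single arrays carry some of these low values. CL737Contig1 read 8.14 on sorbitol 6 h A and 7.92 on sorbitol 24 h C, where its other sorbitol samples ran from 9.54 to 11.21. Bg02-09_L23 read 7.18 and Bg02-09_E24 read 8.16 on sorbitol 24 h C, and Bg02-09_E24 read 7.63 on sorbitol 6 h A. Before normalization, CL737Contig1, Bg02-09_L23 and Bg02-09_E24 had intensities of 8, 0 and 21.3 on sorbitol 24 h C. All were below the negative control threshold of 38.3 on that array. On sorbitol 6 h A, with a threshold of 113.8, Bg02-09_E24 was below it (64.5) and CL737Contig1 above it (125.1). In Bg02-09_E24 the other sorbitol samples at 24 h read 11.23 and 10.75, which is as high as NaCl 24 h (10.80, 10.73 and 10.62). Without the 4 arrays of lowest signal, sorbitol 24 h C among them, Bg02-09_E24 did not meet the rule.

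The NaCl and sorbitol changes were also set against each other. The NaCl change minus the sorbitol change was 0.44 to 2.10 at 6 h (median 1.02) and 0.39 to 2.42 at 24 h (median 0.90), and it was above 0 in all 32 members, as the rule forces. It passed the limma test in 1 member at 6 h, Bg01-04_K24 (0.231% of the tested probes passed as higher), and in 1 member at 24 h, CL914Contig1 (0.995%). The other members did not pass at either time. The rule fixed a difference in this direction, so neither pass is support. At 24 h the sorbitol change of CL914Contig1 was -1.58 and neither of its NaCl rises passed, and Bg01-04_K24 passed in 10 of 30 other fits. A rise in NaCl and not in sorbitol thus describes the group means of these members.

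Bg05-20_J21 and Bg03-09_O16, which share 31 bases, both met the rule, so their likeness in NaCl is a description. The first read 10.06, 9.36 and 10.13 at NaCl 0 h, 11.23, 10.48 and 10.72 at 6 h and 10.76, 11.04 and 10.84 at 24 h. Bg03-09_O16 read 10.30, 9.54 and 10.04, then 10.54, 10.93 and 10.96, then 11.12, 10.60 and 10.76. In both, all treated NaCl samples were above all untreated ones, and the untreated sample B was the lowest. In sorbitol Bg05-20_J21 ran from 9.71 to 10.65 and Bg03-09_O16 from 9.31 to 10.22. Their correlation over the 18 samples was 0.75, and it includes the group differences that chose both.

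The rule was applied to every mangrove probe, and the 4 partners that are no members had missed it. Some difference from the members is therefore built in, and the partners' values are descriptions. Bg02-06_H06, the partner of Bg02-09_E24, also rose in NaCl. It read 9.77, 9.5 and 9.47 at NaCl 0 h, 11.15, 10.56 and 10.87 at 6 h and 11.04, 10.46 and 10.60 at 24 h, with no overlap. The rises were 1.28 and 1.12 (SE 0.25, limma adjusted p = 0.002936 and 0.01771). It also read 10.14, 10.01 and 9.81 in sorbitol at 0 h, 10.5, 10.25 and 9.94 at 6 h and 11.17, 10.77 and 11.47 at 24 h, a change of 1.15 at 24 h. The partner was therefore higher at 24 h than at 0 h in every sample of both series, and the low readings of Bg02-09_E24 on sorbitol 6 h A and sorbitol 24 h C had no counterpart in it. The NaCl calls were lost on the authors' deposited table and under median scaling, and at 24 h also without NaCl 0 h B or without NaCl 24 h A.

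The other 3 partners did not pass in NaCl. Bg05-16_D02 differed by -0.16 at 6 h and 0.15 at 24 h (SE 0.52, limma adjusted p = 0.8654 and 0.9089), where the differences of Bg02-02_K12 were 0.75 and 0.71. Without NaCl 0 h B the smaller of these was 0.45. The member itself read 11.21, 10.09 and 10.56 at NaCl 0 h, 11.73, 11.18 and 11.18 at 6 h and 11.51, 11.28 and 11.19 at 24 h, and NaCl 0 h A lay within the treated range. In sorbitol Bg05-16_D02 read 8.22 on 6 h A and 8.30 on 24 h C, and its mean change there was -0.91 and -1.46.

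The 3 spots of the Bg01-08_O19 sequence disagreed most, although their bases are identical. The member read 9.6, 9.47 and 8.96 at NaCl 0 h, 9.99, 9.81 and 10.44 at 6 h and 10.24, 10.11 and 9.80 at 24 h. Bg03-08_B10 read 10.55, 9.88 and 9.17, then 9.97, 9.49 and 10.14, then 9.77, 10.06 and 9.84. Bg03-09_B05 read 10.48, 10.11 and 9.68, then 9.84, 9.36 and 10.02, then 9.67, 9.70 and 9.71. The first was higher by 0.74 and 0.71, the second differed by 0.00 and 0.02 (SE 0.31, limma adjusted p = 0.9982 and 0.9784) and the third by -0.35 and -0.40 (SE 0.27, limma adjusted p = 0.4002 and 0.4174). The spots differed mainly at NaCl 0 h, where the member was lowest. Averaged over the 3 spots, this sequence differed by 0.13 at 6 h and 0.11 at 24 h, below the limit of the rule.

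How far identical spots differ over the whole array sets a scale for these rises. Among tested probes, 52 sequences were present on 108 probes, which gave 60 pairs. Members of a pair differed in their NaCl 6 h rise by a median of 0.38 and in their NaCl 24 h rise by a median of 0.28, with highest gaps of 1.17 and 1.10. The gap was at least 0.7, the rise the rule asks for, in 9 pairs at 6 h and in 7 at 24 h. These counts include the Bg01-08_O19 sequence, so the scale is not independent of that member. Bg01-08_O19 differed from Bg03-08_B10 by 0.73 at 6 h and 0.68 at 24 h. It differed from Bg03-09_B05 by 1.08 and 1.10, the latter being the highest gap at 24 h. The gaps between Bg03-08_B10 and Bg03-09_B05 were 0.35 and 0.42.

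**Figure D4:**
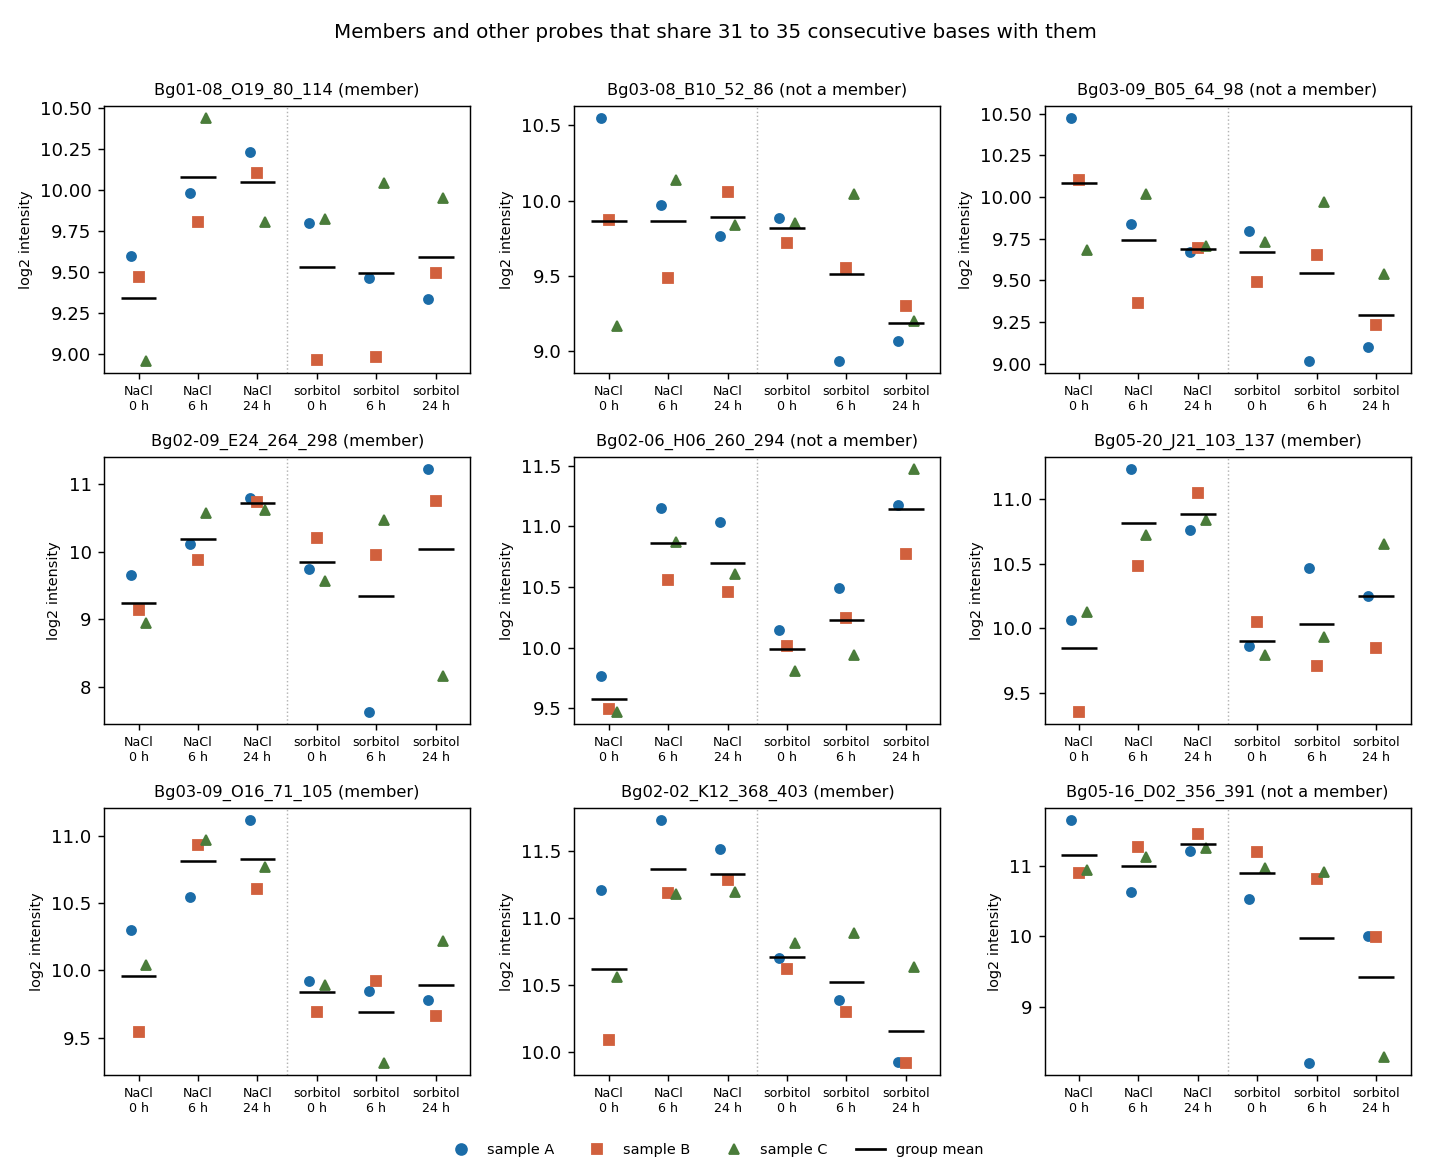
Log2 intensity (y axis, own scale in each panel) by group (x axis) for 5 members and the 4 other probes that share 31 to 35 consecutive bases with them; symbols are samples A, B and C and bars are group means. Bg01-08_O19 is higher in treated NaCl, whereas its identical partners Bg03-08_B10 and Bg03-09_B05 differed by -0.40 to 0.02, and Bg02-06_H06 is higher in treated NaCl and at sorbitol 24 h.

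The repeat array gave a second untreated reading of every member in sample C of NaCl 0 h. On it 27 members read higher than on the first array and 5 lower (Bg03-01_B09, Bg04-07_A24, CL462Contig1, Bg04-24_P20 and Bg04-14_B12). The median difference was 0.27 for the members and 0.01 for all tested probes, whose SD was 0.39. In size, disregarding sign, the median difference was 0.37 for the members and 0.21 for all tested probes. The rule used the first array and not the repeat, and the part of that choice in the difference was not tested.

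Most members stayed below the treated samples. On the repeat array 28 of the 32 lay below all 6 treated NaCl samples, against 31 on the first array. The rule chose high treated NaCl means and used the first array, and the share over all tested probes was not counted. Both counts are therefore descriptions. The 4 that did not were Bg03-10_I04 (10.71 against a lowest treated sample of 10.70), Bg03-10_M03 (10.53 against 10.5), Bg05-17_J20 (9.46 against 9.26) and Bg04-12_L05. The last read 12.67 on the repeat and 9.14 on the first array, a difference of 3.53, and its repeat reading exceeded every other sample. At the other end Bg04-14_B12 read 7.74 on the repeat and 8.90 on the first array. With the repeat in place of the first array 15 probes met the rule, 14 of them members, and with the mean of both arrays 19 did, all of them members.

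**Figure D5:**
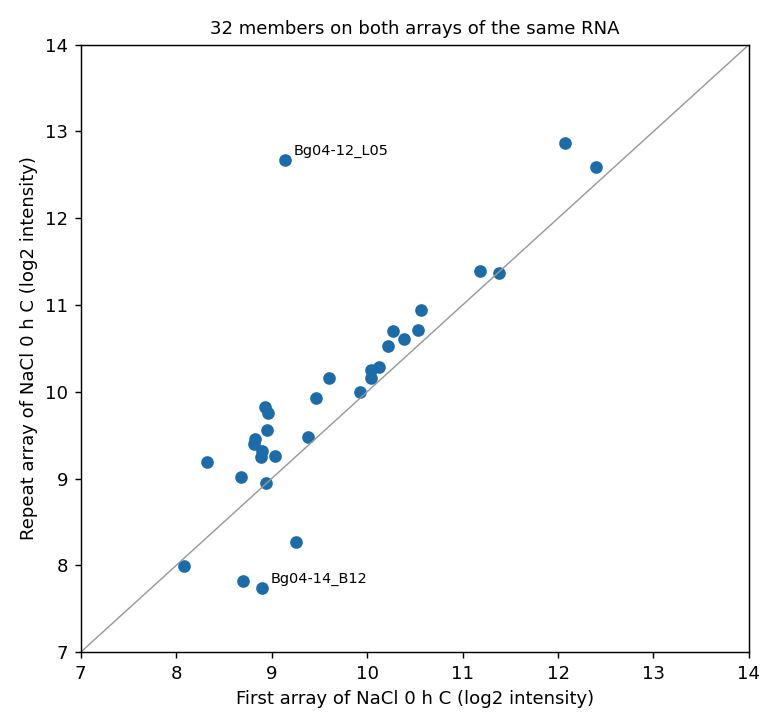
Log2 intensity of the 32 members on the first array (x axis) and on the repeat array (y axis) of the same NaCl 0 h C RNA, with equality as a diagonal. Of the 32 points, 27 lie above the diagonal, and Bg04-12_L05 lies 3.53 above it.

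The limits of the rule cut through a continuous range. Just inside were CL269Contig1 and Bg01-04_K24, whose NaCl 24 h mean exceeded sorbitol 0 h by 0.302. Just outside were CL386Contig1_97_131, with NaCl rises of 1.37 and 1.00 and a sorbitol 6 h change of 0.402, and Bg05-17_B11_161_197, with rises of 0.75 and 0.71 and a sorbitol 6 h change of 0.412. With every other limit kept, dropping the sorbitol 24 h limit gave 70 probes, dropping the limit on NaCl 24 h above sorbitol 0 h gave 53 and dropping the level limit gave 49. The NaCl rises of CL386Contig1 were larger than those of most members.

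Some features that the rule did not use were also counted. The members' median GC content was 51.4%, beside 48.6% over the tested probes, and 5 of 32 (15.6%) were from contigs, beside 11.9%. Clones of the Bg04 set made up 21.9% of the members and 34.6% of the tested probes. By position on the array, 14 members (43.8%) lay in the second of 4 equal blocks of the 224 rows, which held 24.6% of the tested probes, and 3 (9.38%) in the third, which held 23.8%. These shares are descriptions of a small list. Apart from the pair Bg05-20_J21 and Bg03-09_O16, no members shared 20 or more consecutive bases. Within groups, the deviations of members from their group means correlated with a median r of 0.19 over the 18 samples, beside -0.01 over all tested probes, and members therefore shared part of their sample-to-sample variation.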

How the data were processed

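Leaf RNA was amplified to cRNA, labelled with Cy5 and measured in 1 colour, per the labels' protocols. Per the file headers, the authors' scanner output holds a linear intensity for each spot, as foreground mean and median; its software is not named in the sources used here. The foreground mean plus 50 was put on a log2 scale and quantile-normalized over the mangrove probes of 18 arrays, the scale of the rule, with no background correction. The authors' deposited table of intensity values, 16 of whose columns are quantile-normalized and 3 of which are on the scanner scale, was an alternative. The model was limma with 6 group means, 12 residual degrees of freedom and Benjamini-Hochberg adjustment over 8642 probes, and was tested on simulated data.

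The members, lists and named probes were chosen with earlier results of these data known. Named were the 6 members with the largest smaller NaCl rise, the 4 brightest, those called between treated times, those sharing 20 or more bases with another probe and the pairs nearest to the limits; other members named in short lists, and the separated ones, were picked after their values were seen. Gene lists and leaf markers were not run, since the files name no genes. Arrays give no counting depth; the number of samples (3 per group) limits precision. R 4.3.3, limma 3.58.1, Python 3.11.15 and matplotlib 3.10.9 were used.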

Additional observations from a re-analysis of the deposited data

Results flagged for a closer look

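In 2 members the NaCl and sorbitol changes from 0 h differed past the threshold of the limma test of that difference; the rule that chose the members used both changes, so the test is no support. For Bg01-04_K24 at 6 h the difference was 1.5 (SE 0.35). NaCl samples read 9.16, 8.81 and 8.81 at 0 h and 10.33, 9.86 and 10.10 at 6 h, and sorbitol samples 9.23, 9.74 and 9.48 at 0 h and 9.28, 8.94 and 9.20 at 6 h. It passed in 10 of 30 other fits, with values of 1.32 to 1.69. For CL914Contig1 at 24 h the difference was 2.42 (SE 0.48), and it passed in 29 of 30 other fits, all but that on the authors' deposited table, with values of 1.99 to 2.78. Single samples were not compared with their own group for outliers, since each group holds 3.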

How the results depend on the processing

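The 32 members depended on the arrays used. With 9 other settings 15 to 39 probes met the rule: 15 with the repeat array of NaCl 0 h C and 19 with the mean of both its arrays, and otherwise 24 to 39. Among the settings, a background correction (normexp) gave 29 probes, all of them members. The corrected values of 4 arrays were replaced in it, so it is only a partial alternative. Leaving out 1 sample gave 24 probes (NaCl 0 h B left out, 21 of them members) to 45 (NaCl 0 h A left out, 28 of them members). The 9 settings all kept 4 members (Bg04-12_A06, Bg03-09_O16, Bg03-10_I04 and Bg05-21_L03), the 18 left-out fits all kept 1 (CL1093Contig1), and none was kept in every one of both. The members passing between NaCl 6 h and 24 h stayed at 0 in all 30 fits (limma; at most 1 at an unadjusted p under the threshold).

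For the contrasts that the rule used, the members passing at NaCl 6 h, at NaCl 24 h, and in the difference of responses at 6 h and at 24 h were 20, 7, 1 and 1. Median scaling gave 0, 0, 0 and 1 (28, 22, 8 and 8 unadjusted) and the authors' deposited values gave 0, 0, 0 and 0 (12, 7, 2 and 8 unadjusted); over all tested probes these called 81 and 17 at NaCl 6 h, against 1415. The repeat array and the mean of both arrays each gave 3 at NaCl 24 h and 0 in the difference at 6 h, as did no filter on dim probes. The foreground median gave 2 in the difference at 24 h. Without the 4 arrays of lowest signal 12 passed at NaCl 6 h and 2 between the sorbitol times. The letters were taken as pairs only if every same-letter pair of samples had deviations correlated above 0.1, which 25 of 45 had (-0.29 to 0.48, median 0.11, against -0.05 for different letters). All 3 letters passed for 2 of 15 pairs of groups, sorbitol 0 h with sorbitol 6 h and NaCl 6 h with sorbitol 6 h. The design does not tie equal letters to a shared plant or batch. With the replicate letter as a block 14 passed at NaCl 24 h, 4 in the difference at 6 h and 3 in that at 24 h. Over all tested probes the calls in either direction also rose with the block, from 397, 67 and 214 to 710, 345 and 346. Leaving out 1 sample gave 4 to 21 at NaCl 6 h (11 without NaCl 6 h A or NaCl 6 h C), 0 to 11 at NaCl 24 h (0 without NaCl 0 h B, NaCl 24 h A or NaCl 24 h C, with 20 to 25 unadjusted), 0 to 3 and 1 to 4 in the differences, and 1 to 2 between the sorbitol times. The causes were not tested. No change of direction occurred among the named results that passed. On arrays of lowest signal, dim members lie near the floor of the scale.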
